A study of Ovis aries with 16 samples.

Results

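CCNB1, CDK1, CCNA2, ASPM and HMMR are 5 genes of mitotic entry and of the mitotic spindle, measured here in the left ventricle of fetal sheep. They were chosen from an earlier reading of these arrays on their lower signal after losartan, so their values in that comparison are a description and carry no test. Their probes were found by name: every probe whose gene name, accession or description in the array files gives 1 of the 5 genes, with CDC2 read as CDK1. This gave 6 probes for the 5 genes, of 990 genes with a name on the array.

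Each array held RNA of 1 fetus, and 16 fetuses of 8 twin pregnancies were measured. In twin sets 1 to 4, 4 fetuses received losartan, a blocker of the angiotensin II type 1 receptor, and their 4 twins were untreated. In twin sets 5 to 8, 4 fetuses received angiotensin II, the receptor's natural peptide agonist, and their 4 twins were untreated. Pregnancies were at 125 to 126 days of a 145-day term at surgery, the infusions were intravenous and lasted 5 days, and the labels call them both daily and continuous. They also give the tissue both as free wall and as free wall with septum. Strain, sex and dose are not given in the sources used here, and each fetus was sampled once.

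A cell enters mitosis when the kinase CDK1 is switched on by cyclin B1, the product of CCNB1. Cyclin A2, the product of CCNA2, binds CDK2 and CDK1 and acts from S phase to early mitosis. ASPM and HMMR encode proteins of the spindle poles and microtubules that help to build and orient the spindle. Transcripts of such genes are made mostly in late S phase, G2 and M, so they are abundant only where cells cycle. In fetal sheep many cardiomyocytes still divide before term, while others become binucleate and stop, beside dividing fibroblasts and endothelial cells. In bulk tissue, fewer cycling cells and less transcript per cycling cell cannot be told apart.

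The letters that each gene's level rests on are those of its probes, each 60 bases long and spotted once per array. The CDK1, CCNA2 and ASPM probes are shown whole, and of the CCNB1 and HMMR probes, which may lie outside the coding part, 30 bases are shown. Capitals mark AATAAA, the usual polyadenylation signal, which 5.63% of all 15008 probes hold.
CCNB1 probe A_70_P003401, bases 22 to 51: atactatctgcaAATAAAattggcaccatg
CDK1 probe A_70_P047446: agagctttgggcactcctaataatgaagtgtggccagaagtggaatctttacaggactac
CCNA2 probe A_70_P034351: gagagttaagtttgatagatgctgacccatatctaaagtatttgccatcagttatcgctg
ASPM probe A_70_P002876: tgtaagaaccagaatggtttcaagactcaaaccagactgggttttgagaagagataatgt
HMMR probe A_70_P016336, bases 1 to 30: tctctgacattctagttacaattgtcagta
HMMR second probe A_70_P016337, bases 31 to 60: gaaaggaaagtagaccgtttttaccagtgg
The 2 HMMR probes lie end to end on 1 expressed sequence tag, the second at bases 682 to 741 and the first at bases 742 to 801, so they read neighbouring stretches of the same sequence. The G+C content of the 6 probes was 36.7% to 45%, against a median of 43.3% over all probes. The array names the CCNB1 probe only by a sequence cluster, with cyclin B1 in its description, and it names HMMR by its older symbol, RHAMM. The files give no genome build or chromosome position for these probes.

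A level below is the log2 of a probe's processed red signal over the 75th percentile of its array, so 0 stands for a probe at that percentile. The tested probes, 8970 in all, are those that stood well above background throughout 1 group of 4 arrays or more, and among them are 5 of the 6 member probes, 1 per gene. The ASPM probe passed this filter only through the untreated twins of the losartan arm. That group is the one set against losartan, so passing by it favours a lower losartan estimate. The 16 arrays lay on 2 slides of 8. Along the first principal component, with 32.1% of the variance, 3 arrays stood apart: the untreated twin of set 2 and the angiotensin II fetuses of sets 7 and 8. Changes were fitted in limma over all 16 arrays with the twin set as a block. Of the 8970 tested probes, 108 passed an adjusted p of 0.05 with losartan (1.2%), 89 of them lower (0.992%).

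CCNB1 had levels of -1.75, -1.48, -2.42 and -3.43 in the losartan fetuses of sets 1 to 4, against -0.05, -0.06, -0.40 and 0.20 in their untreated twins. Every losartan fetus lay below every untreated fetus of those sets, and the lowest was that of set 4. The group means were -2.27 ± 0.87 with losartan and -0.08 ± 0.25 in the untreated twins (SD, n = 4 each), and CCNB1 was well above background on all 16 arrays. The change was -2.19 (SE 0.30), a 4.58-fold lower signal in losartan fetuses. It ranged from 2.68-fold lower in set 2 to 12.4-fold lower in set 4.

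CDK1, the kinase that cyclin B1 switches on, had levels of -2.75, -3.05, -3.47 and -4.09 in losartan fetuses of sets 1 to 4, against -1.16, -1.52, -1.33 and -1.07 in their untreated twins. The groups did not overlap, and the losartan fetuses of sets 3 and 4 were not well above background, so their values are uncertain. The means were -3.34 ± 0.58 with losartan and -1.27 ± 0.20 in the untreated twins (SD, n = 4 each). The change was -2.07 (SE 0.22), a 4.20-fold lower measured signal that includes those 2 fetuses.

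CCNA2, the cyclin of S phase and early mitosis, had levels of -3.40, -3.31, -4.07 and -4.59 in losartan fetuses of sets 1 to 4, against -1.88, -2.07, -2.10 and -1.78 in their untreated twins. Again no losartan fetus reached an untreated one, and with losartan the probe was well above background only in set 1. The means were -3.84 ± 0.60 with losartan and -1.96 ± 0.15 in the untreated twins (SD, n = 4 each), a change of -1.88 (SE 0.22). That change rests on 3 losartan signals not well above background, so no fold is given.

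ASPM, the spindle pole protein named for abnormal spindles in flies, had levels of -3.95, -3.81, -4.77 and -5.46 in losartan fetuses of sets 1 to 4, against -2.73, -3.22, -2.56 and -2.17 in their untreated twins. The probe stood well above background in no losartan fetus (0 of 4) and in all 4 untreated twins. The measured means were -4.50 ± 0.77 with losartan and -2.67 ± 0.44 in the untreated twins (SD, n = 4 each). In the reported processing they therefore give only a bound, a mean signal at least 1.92-fold lower with losartan, which leaves out the error of the means. This bound sets each losartan array at the lowest signal among its probes well above background, or at the ASPM value where that was higher. The fitted change of -1.83 (SE 0.36) rests on signals below that limit. In the authors' deposited value table the change was -0.89, smaller than the bound, which thus holds for the reported processing only.

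HMMR, a receptor for hyaluronan that also binds spindle microtubules, had levels of -0.72, -1.01, -1.37 and -1.76 in losartan fetuses of sets 1 to 4, against 0.14, -0.28, -0.15 and 0.27 in their untreated twins. The groups did not overlap, and this probe was well above background on all 16 arrays. The means were -1.22 ± 0.45 with losartan and 0.00 ± 0.25 in the untreated twins (SD, n = 4 each), and the change of -1.21 (SE 0.20) is a 2.32-fold lower signal. The second HMMR probe was not well above background in any of these 8 fetuses, with levels of -5.34 to -3.98 with losartan and -3.91 to -3.30 in the untreated twins, so no fold is given for it. A further probe, named only by an expressed sequence tag, shares a sequence cluster with the first HMMR probe and lies outside the naming rule. It was well above background in all 8, with levels of 0.54 to 1.55 in losartan fetuses and 2.08 to 2.77 in their untreated twins, a change of -1.54 (SE 0.20).

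**Figure D1:**
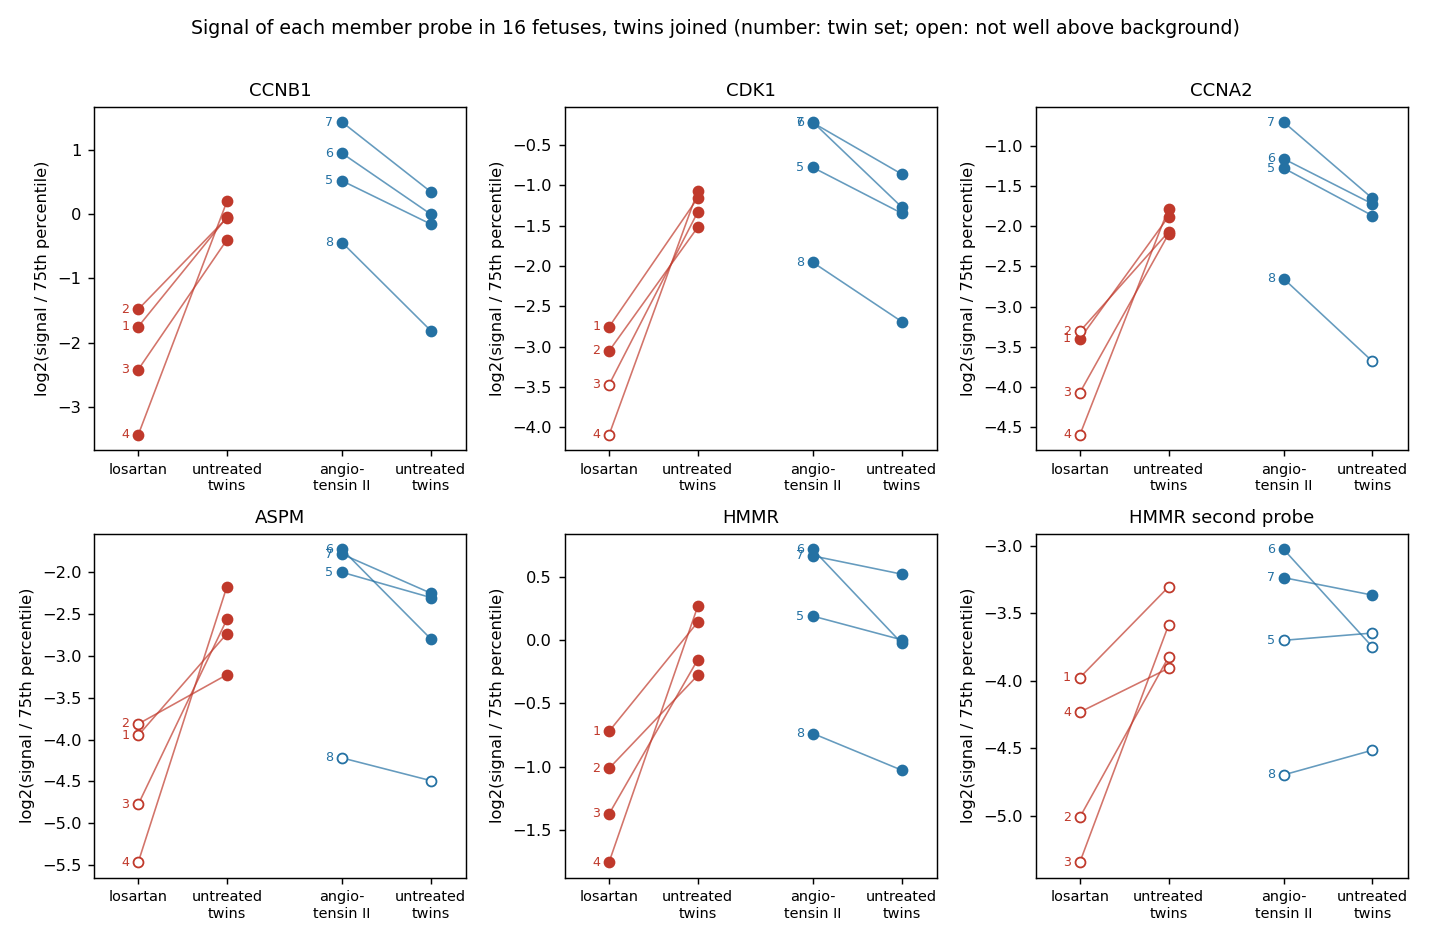
Level of each of the 6 member probes (vertical axis, log2 of signal over the array's 75th percentile) in the losartan fetuses and their untreated twins (red) and in the angiotensin II fetuses and their untreated twins (blue). A point is 1 fetus, lines join twins, numbers are twin sets and open points were not well above background. CCNB1 lies between -3.43 and -1.48 in losartan fetuses and between -0.40 and 0.20 in their twins.

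All 5 genes had their groups apart, as did 4.09% of the tested probes, those with every losartan fetus below every untreated twin of that arm. They were lower in 4 of 4 twin sets, as were 11.1% of the tested probes. Since the genes were picked on this comparison, nothing is read from these counts. The median change over the 5 genes was -1.88, against 0.01 over all 8970 probes, whose lowest 1% began at -1.05. Of the tested probes, 17 had a lower estimate than CCNB1 and 67 a lower one than HMMR.

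The 5 genes also shared the order of the twin sets. The ratio of losartan fetus to untreated twin was farthest below 0 in set 4, next in set 3, then in set 1 and least in set 2, for each of the 5 genes, an order that 7.97% of the tested probes had. Of the losartan signals behind it, 2 of 4 for CDK1, 3 of 4 for CCNA2 and all 4 for ASPM were not well above background. In the authors' deposited value table sets 4 and 3 again lay lowest for each gene, but sets 1 and 2 changed places for CDK1 (-0.88 in set 1 and -1.07 in set 2) and for HMMR (-0.38 and -0.57). In set 4 the log2 ratios were -3.63 for CCNB1, -3.02 for CDK1, -2.81 for CCNA2, -3.29 for ASPM and -2.02 for HMMR. In set 2 they were -1.42, -1.53, -1.24, -0.59 and -0.74 in the same order of genes. For the 2 genes well above background on all arrays, the SD between twin sets was 0.99 for CCNB1 and 0.58 for HMMR. Without set 4 the median change over the 5 genes was -1.57. The second HMMR probe did not keep this order, with a ratio of -0.32 in set 4 and -1.75 in set 3, all from signals not well above background.

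Slide and treatment were partly mixed in this arm: slide 1 held 1 losartan fetus and 3 untreated twins, and slide 2 held 3 losartan fetuses and 1 untreated twin. Only the twins of sets 2 and 3 lay on 1 slide each, with CCNB1 ratios of -1.42 and -2.02 and CDK1 ratios of -1.53 and -2.14. Fitted within slide 1 and within slide 2, CCNB1 had changes of -2.34 and -2.17, HMMR of -1.46 and -0.89, and ASPM of -2.28 and -1.18. These fits lose the twin pairing and set 1 fetus against 3, on slide 2 the untreated twin of set 2, whose array stood apart. Adding slide to the fit gave changes of -2.11 for CCNB1 and -1.13 for HMMR. Without sets 2, 7 and 8, which hold the 3 arrays that stood apart, the median change over the 5 genes was -2.24.

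**Figure D2:**
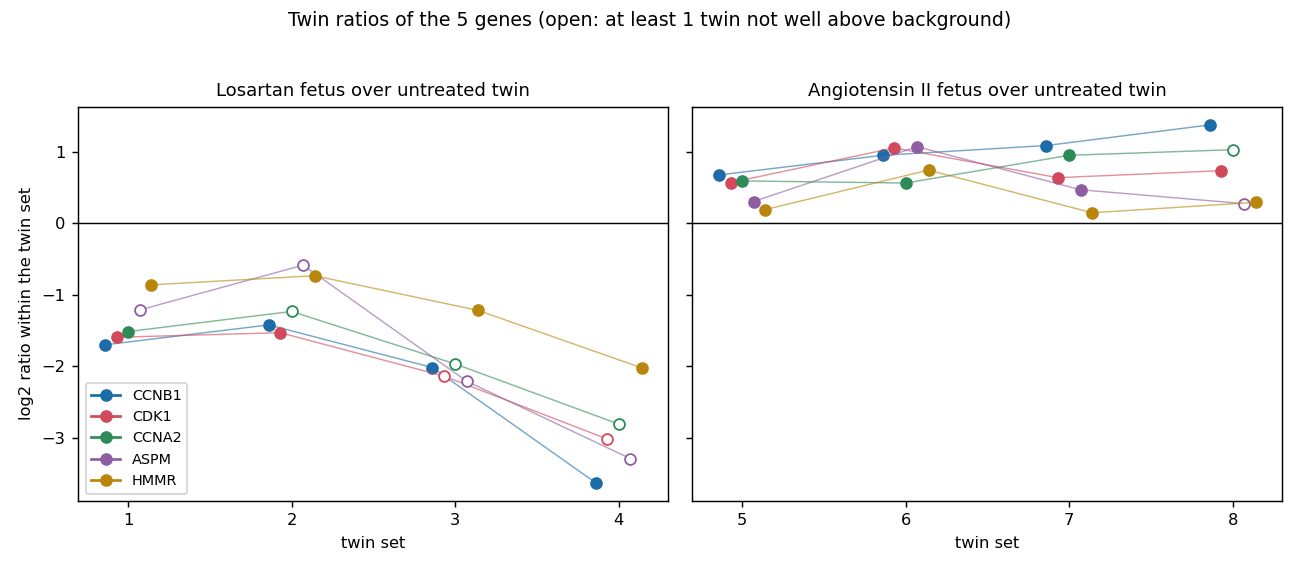
Log2 ratio of the treated fetus over its untreated twin (vertical axis) in each twin set (horizontal axis) for the 5 genes, with losartan on the left and angiotensin II on the right. Open points have at least 1 twin that was not well above background. With losartan, set 4 lies lowest for every gene (-3.63 to -2.02) and set 2 highest (-1.53 to -0.59), and with angiotensin II all points lie above 0.

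The arm given angiotensin II asks what the receptor's agonist does in the same tissue. CCNB1 had levels of 0.52, 0.95, 1.43 and -0.44 in angiotensin II fetuses of sets 5 to 8, against -0.15, 0.00, 0.35 and -1.81 in their untreated twins. Each treated fetus lay above its own twin, but the groups overlapped, since both fetuses of set 8 were low. The means were 0.62 ± 0.80 with angiotensin II and -0.40 ± 0.96 in the untreated twins (SD, n = 4 each). The change of 1.02 (SE 0.30), a 2.03-fold higher signal, did not pass the test (limma adjusted p = 0.458).

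CDK1 had levels of -0.78, -0.22, -0.22 and -1.95 in angiotensin II fetuses of sets 5 to 8, against -1.34, -1.27, -0.86 and -2.69 in their untreated twins, with a change of 0.75 (SE 0.22; limma adjusted p = 0.458). CCNA2 had levels of -1.28, -1.16, -0.71 and -2.65 in angiotensin II fetuses, against -1.87, -1.72, -1.65 and -3.68 in their untreated twins, with a change of 0.78 (SE 0.22; limma adjusted p = 0.451). Both genes were higher in the treated twin of 4 of 4 sets, and for neither did the difference pass the test. The CCNA2 probe was not well above background in the untreated twin of set 8.

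ASPM had levels of -2.00, -1.73, -1.78 and -4.22 in angiotensin II fetuses of sets 5 to 8, against -2.30, -2.80, -2.25 and -4.49 in their untreated twins, with both fetuses of set 8 not well above background. HMMR had levels of 0.19, 0.72, 0.67 and -0.74 in angiotensin II fetuses, against 0.00, -0.02, 0.52 and -1.03 in their untreated twins. These 2 spindle genes were also higher in 4 of 4 treated twins in the reported processing, the ASPM ratio of set 8 being between signals not well above background. The changes were 0.53 for ASPM (SE 0.36; limma adjusted p = 0.548) and 0.34 for HMMR (SE 0.20; limma adjusted p = 0.513), and their 95% intervals ran from -0.27 to 1.32 and from -0.10 to 0.78.

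Each slide of this arm held 2 treated and 2 untreated fetuses, and CCNB1 had a change of 0.56 within slide 1 and of 1.48 within slide 2, and HMMR of 0.20 and 0.48. These fits lose the twin pairing. Slide 1 held the treated fetuses of sets 5 and 6 and the untreated twins of sets 6 and 7. Slide 2 held the treated fetuses of sets 7 and 8, whose arrays stood apart, and the untreated twins of sets 5 and 8.

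None of the 5 genes passed the threshold with angiotensin II, and of the 8970 tested probes limma called 0 (0%), with 937 at an unadjusted p under 0.05. A ratio above 0 in 4 of 4 sets was found for all 5 genes and for 7.79% of the tested probes. In the authors' deposited value table HMMR had a log2 ratio of -0.22 in set 5, so the count held there for the other 4 genes, with CDK1 at 0.01 in set 5. This direction was known from the earlier reading. The median change over the 5 genes was 0.75, against -0.03 over all tested probes, and 27 probes had a higher estimate than CCNB1 and 711 a higher one than HMMR. For the second HMMR probe, well above background in the angiotensin II fetuses of sets 6 and 7 and the untreated twin of set 7, the ratios ran from -0.18 to 0.72. The probe that shares the HMMR sequence cluster had a change of 0.57 (SE 0.23; limma adjusted p = 0.465), without the angiotensin II fetus of set 6, where its spot was marked as an outlier.

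**Figure D3:**
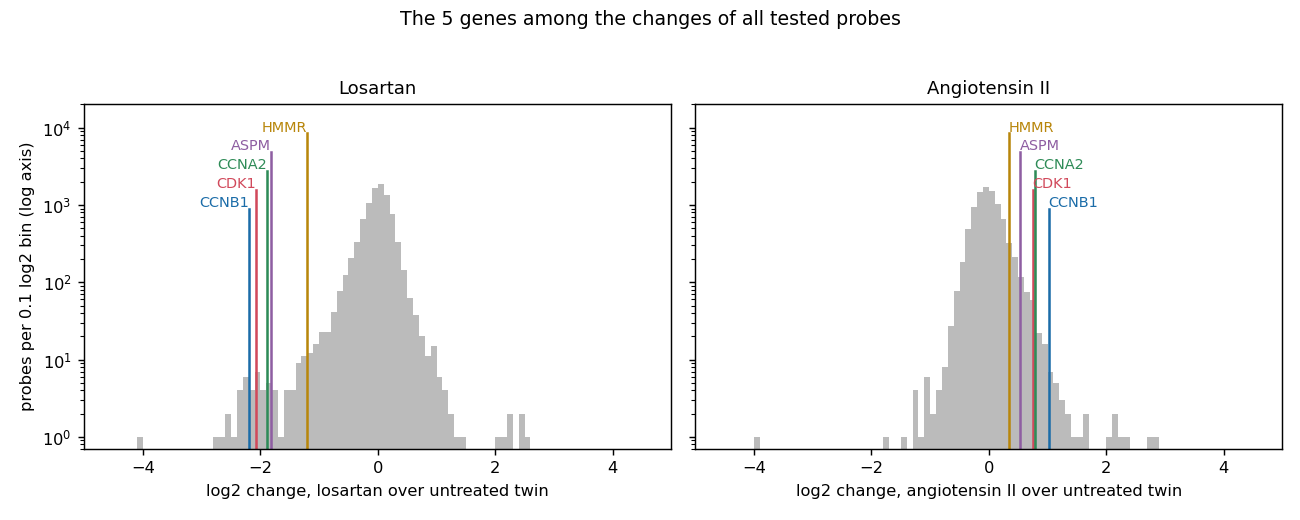
Number of tested probes per 0.1 of log2 change (grey, log axis) with losartan on the left and angiotensin II on the right, with the 5 genes as coloured lines. The 5 genes lie from -2.19 to -1.21 with losartan, where the lowest 1% of probes begins at -1.05, and from 0.34 to 1.02 with angiotensin II, where the highest 5% begins at 0.43.

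Set side by side, the mean levels of each gene stood in the order angiotensin II fetuses, both untreated groups, losartan fetuses. CCNB1, for example, averaged 0.62 ± 0.80 in angiotensin II fetuses and -2.27 ± 0.87 in losartan fetuses, against -0.40 ± 0.96 and -0.08 ± 0.25 in the untreated twins of the 2 arms (SD, n = 4 each). In this order the ranges of the angiotensin II group and of both untreated groups overlapped. The angiotensin II fetus of set 8 also lay below the highest losartan value for ASPM (-4.22 against -3.81) and HMMR (-0.738 against -0.720). For CCNB1, CDK1 and CCNA2 the angiotensin II and losartan ranges did not overlap. The untreated twins of the losartan arm exceeded those of the angiotensin II arm by 0.13 for HMMR to 0.33 for CCNB1. Without set 8 these differences were between -0.22 for ASPM and -0.11 for CDK1, so that set decides their sign.

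Both fetuses of twin set 8 were low for all 5 genes, a pattern noticed after the values were seen and given here without a test. The untreated twin of set 8 had a CCNB1 level of -1.81, against -0.40 to 0.35 in the other 7 untreated fetuses, which is 3.48-fold below their mean. It had a CCNA2 level of -3.68, against -2.10 to -1.65 in the other 7, and an HMMR level of -1.03, against -0.28 to 0.52. For CCNB1, CCNA2, ASPM and HMMR this untreated fetus lay within the range of the 4 losartan fetuses, and for CDK1, at -2.69, just above their highest value of -2.75.

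The angiotensin II fetus of set 8 was likewise the lowest of its group for each gene, and its difference from the mean of the other 3 was -1.41 for CCNB1 and -2.38 for ASPM. Of all tested probes, 11.7% had their lowest untreated value in the untreated twin of set 8, and 20.4% had their lowest angiotensin II value in its treated twin. The treated fetus of set 8 is among the 3 arrays that stood apart, and its untreated twin is not. Since both twins were low, the ratios in set 8 stayed between 0.27 for ASPM and 1.37 for CCNB1. Without set 8 the median change over the 5 genes with angiotensin II was 0.70.

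Beyond the 5 genes, 172 genes of cell division in 4 lists were looked up, and 11 could be tested. The lists were drawn up with earlier results of these data known. Of other genes of mitosis, the array named 2 of 87, and RAN, a GTPase of nuclear transport and spindle assembly, was tested: its change was -0.19 with losartan (SE 0.12) and 0.13 with angiotensin II (SE 0.12). AURKA, a spindle pole kinase, was on the array but too dim to be tested.

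Of 4 tested genes of DNA synthesis, 1 fell with losartan, as did 0.992% of all tested probes: PCNA, the sliding clamp of the replication fork. Its change was -0.73 (SE 0.11; limma adjusted p = 0.0128), with levels of -0.70 to -0.40 in losartan fetuses and 0.07 to 0.35 in their untreated twins, lower in 4 of 4 sets. With angiotensin II PCNA had a change of 0.37 (SE 0.11; limma adjusted p = 0.458). RPA1, which coats single-stranded DNA, had a change of -0.48 with losartan (SE 0.24), CDK2, the S-phase kinase, of -0.18 (SE 0.14), and DNMT1, which copies DNA methylation after replication, of -0.30 (SE 0.10), and none of these 3 passed. The median over the 4 genes was -0.39 with losartan and 0.25 with angiotensin II, against 0.01 and -0.03 over all tested probes.

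Of 4 tested G1 genes, 1 passed with losartan and in the other direction: MYC, a transcription factor of growth, rose by 0.65 (SE 0.12; limma adjusted p = 0.0322). Its levels were 3.19 to 3.45 in losartan fetuses and 2.61 to 2.76 in their untreated twins. CCND2, which encodes cyclin D2, had a change of -1.20 (SE 0.28; limma adjusted p = 0.0883) and was lower in 4 of 4 sets without passing. CCND3, which encodes cyclin D3, had a change of 0.24 (SE 0.13) and CDK4, the partner of these cyclins, one of -0.27 (SE 0.15). CDKN1B and CDKN1C, which encode inhibitors of the cyclin-dependent kinases, had changes of -0.11 and -0.16, and neither passed.

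Over the 11 tested genes, 1 fell and 1 rose with losartan, and the median change was -0.19. Of all 8970 tested probes, 1.2% passed with losartan in either direction and 0.992% fell. With angiotensin II limma called 0 of the 11 and 0% of all tested probes, and the median was 0.13. PCNA alone had an unadjusted limma p under 0.05, as had 937 of the 8970 tested probes, so nothing is read from that count. In the untreated twin of set 8, PCNA had a level of -0.38, against 0.07 or more in the other 7 untreated fetuses.

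**Figure D4:**
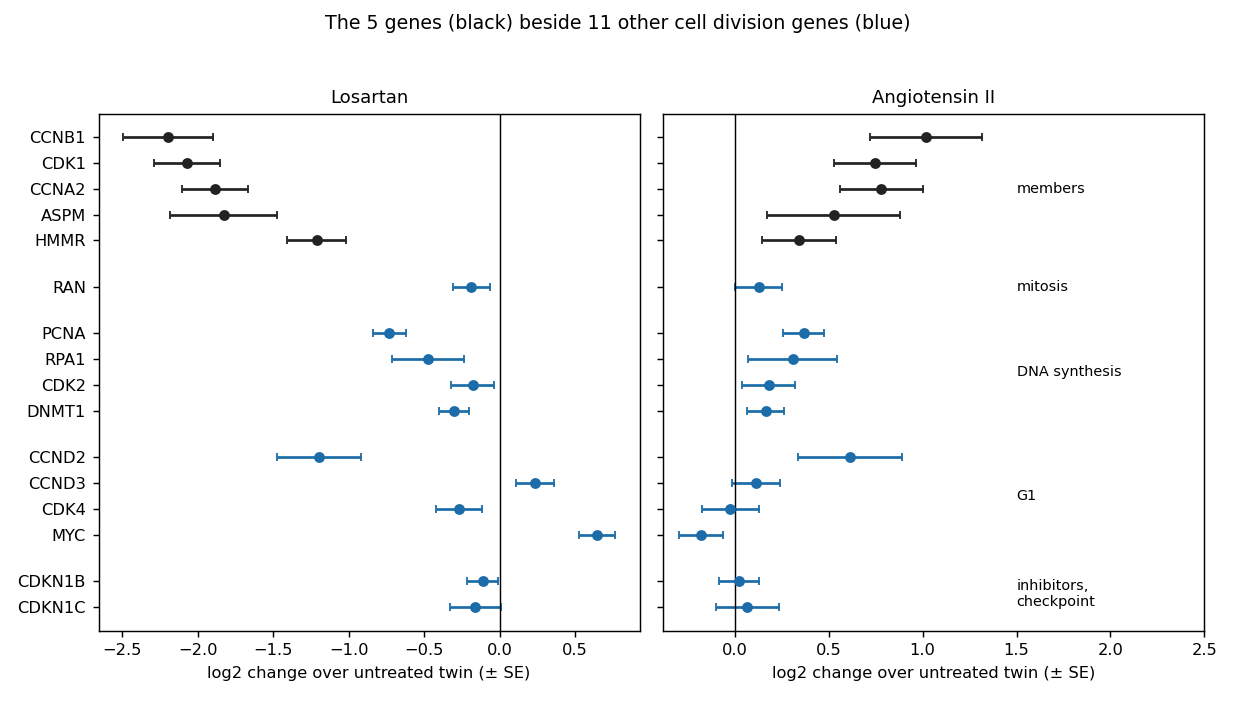
Log2 change over the untreated twin (horizontal axis, with its SE as bars) of the 5 genes (black) and the 11 other tested cell division genes (blue), with losartan on the left and angiotensin II on the right. The 5 genes lie between -2.19 and -1.21 with losartan, PCNA at -0.73, CCND2 at -1.20 and MYC at 0.65.

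The 5 genes varied together across the 16 arrays: each correlated with their mean at a Pearson r of 0.98 (ASPM) to 0.99 (CCNA2), a description only, since each is part of that mean and the arrays share treatment groups and twin sets. With group means taken out, these values were 0.97 (CCNB1) to 0.99 (CDK1). The probe that shares the HMMR sequence cluster, which is not part of the mean, had an r of 0.97. Of 498 other tested genes with a name, 3 had an r above 0.9: PMCH (0.97), LMNB1 (0.96) and PCNA (0.96). The median r over all tested probes was -0.08.

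LMNB1 encodes lamin B1 of the nuclear envelope, while PMCH encodes the hypothalamic peptide precursor of melanin-concentrating hormone. The PMCH probe was well above background on 10 of 16 arrays. Its changes of -2.50 with losartan and 0.71 with angiotensin II thus rest partly on signals not well above background. LMNB1 had changes of -1.08 with losartan and 0.35 with angiotensin II. The next most alike were LGALS1 (r 0.89), IGFBP2 (0.88), DNMT1 (0.88), SQLE (0.88), ASRGL1 (0.83), CIB1 (0.82) and ACTG1 (0.81). Least alike were CTSL2 (r -0.88), MYC (-0.86) and FGF1 (-0.82). Among 8243 tested probes with no gene name, 54 had an r above 0.9 (0.655%).

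Some markers of smooth muscle and of neutrophils passed the threshold with losartan in the same fetuses, as did 1.2% of all tested probes. Markers of the other listed cell types did not. The array names 1 of the 16 listed cardiomyocyte markers, MYH7, the slow myosin heavy chain, well above background on all 16 arrays, so the tissue label was checked on that gene alone. MYH7 had changes of -0.70 with losartan (SE 0.35) and 0.61 with angiotensin II (SE 0.35), and neither passed. Of 3 tested smooth muscle markers of 8 listed, CNN1 and MYL9 fell with losartan, with log2 changes of -1.42 and -1.06 (limma adjusted p = 0.0249 and 0.00853), and MYLK had a change of -0.36. Summed over the 3, the signal was 1338% to 2026% of the array's 75th percentile in losartan fetuses and 3006% to 4358% in their untreated twins. It was 5223% to 7605% in angiotensin II fetuses and 2930% to 4340% in theirs. With angiotensin II none of the 3 passed: CNN1 had a change of 1.09 and MYL9 of 0.93 (limma adjusted p = 0.447 and 0.426), and MYLK had one of -0.20, higher in 1 of 4 sets.

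Of 3 tested neutrophil granule genes of 9 listed, CATHL1B and CATHL3 rose with losartan, by 2.46 and 2.52 (limma adjusted p = 0.0486 and 0.0264), and BAC5 had a change of 2.23. Their summed signal was 300% to 1608% of the 75th percentile in losartan fetuses and 78.2% to 226% in their untreated twins, against 75.5% to 576% in angiotensin II fetuses and 64.5% to 317% in theirs. Of the 4 tested fibroblast, 2 endothelial and 2 leukocyte markers, limma called 0 with losartan, with CD3E alone at an unadjusted p under 0.05. Of all 8970 tested probes, 1.2% were called and 1107 had an unadjusted p under 0.05. These few markers therefore do not show that their cell types were unchanged. The beta-globin gene HBB, the tested red cell marker, had a change of 1.15 with losartan (SE 0.52) and did not pass. The part of these cell types in the levels of the 5 genes was not tested.

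**Figure D5:**
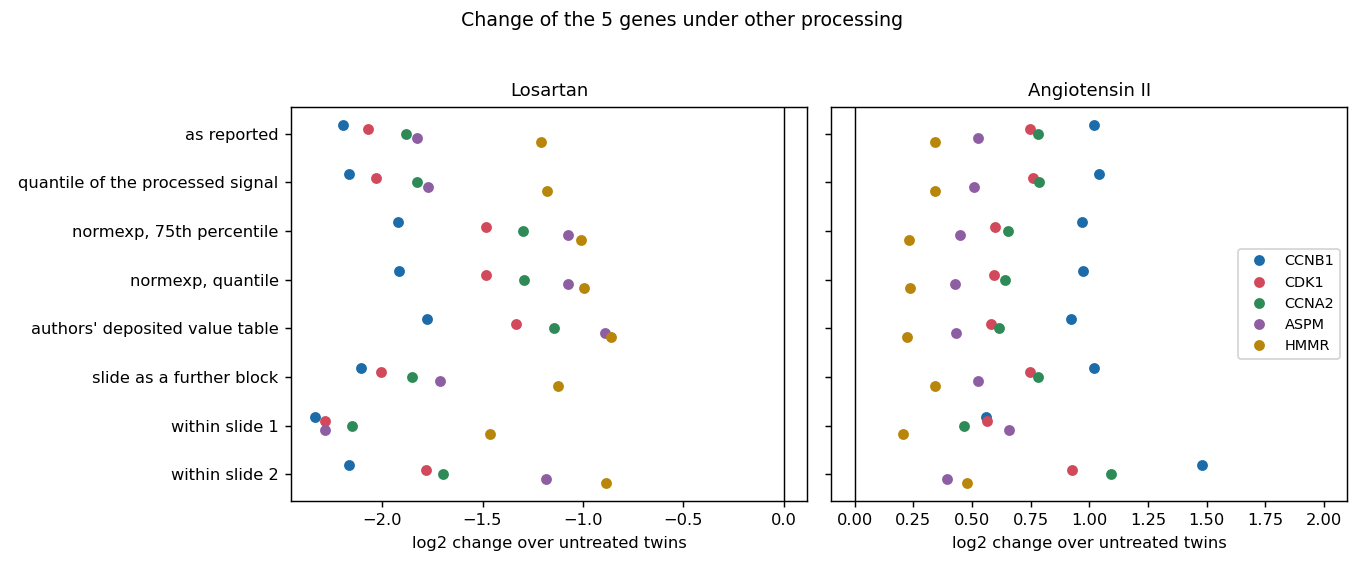
Log2 change over the untreated twins (horizontal axis) of the 5 genes under the reported processing and 7 others (rows), with losartan on the left and angiotensin II on the right. ASPM moves most with losartan, between -2.28 within slide 1 and -0.89 in the authors' deposited value table, and every point keeps its sign.

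Losartan changes of each gene were smaller with a normexp background correction and in the authors' deposited value table. The part of background subtraction in this was not tested. With a normexp correction of the mean spot signal and an offset of 50, the losartan change was -1.48 for CDK1, -1.30 for CCNA2 and -1.07 for ASPM. It was -1.92 for CCNB1 and -1.01 for HMMR, whose probes were well above background throughout. In the authors' deposited value table it was -1.33 for CDK1, -1.15 for CCNA2 and -0.89 for ASPM, and -1.78 for CCNB1 and -0.86 for HMMR. The size of the losartan change of CDK1, CCNA2 and ASPM was thus over 1.5 times larger in the reported values than in that table, with the same direction.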

How the data were processed

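Total RNA of the left ventricle of 16 fetuses was labelled with Cy5 and read on a 1-colour Agilent sheep array, per the labels' protocols. Per the file headers, the authors scanned the arrays and ran Agilent Feature Extraction 10.7.3.1, whose background-subtracted and detrended intensity (fluorescence units) was used. The authors' deposited value table correlated at 0.998 or more per array with the mean spot signal on a natural log scale. How it was made is not stated in these sources, and it served as an alternative only. Control and outlier spots were left out, spots of 1 probe were averaged, and each array's 75th percentile was subtracted on the log2 scale.

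Changes were fitted in limma 3.58.1 (R 4.3.3) with the 8 twin sets as a fixed block and 1 term per treatment, leaving 6 residual degrees of freedom, with Benjamini-Hochberg adjustment over 8970 probes. Twins share a dam, per the labels, so the twin set pairs them. Deviations of twins from their group means correlated at -0.04 to 0.53. The script was tested on simulated data, and the number of arrays limits precision.

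A gene stands for its brightest tested probe. The 5 genes, the lists and the markers were chosen with earlier results of these data known. Genes named were the members, list genes past the threshold or else up to 4 per list with the smallest unadjusted p, the 10 most and 3 least alike named genes, and the markers. Names came from the array files and a RefSeq gene table (assembly ARS-UI_Ramb_v3.0) for 1605 of 15008 probes. A result on 1 list gene is not reported here.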

Additional observations from a re-analysis of the deposited data

Results flagged for a closer look

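In 2 of 36 groups of 4 values examined over the 6 member probes (levels in 4 groups and twin ratios in 2 arms), 1 fetus lay far from the other 3 by Dixon's test at its 95% critical value, and chance gives about 1 in 20. Both were fetuses of twin set 8. ASPM had a level of -4.22 in the angiotensin II fetus of set 8, against -2.00 to -1.73 in the other 3, and it was not well above background there. CCNA2 had a level of -3.68 in the untreated twin of set 8, against -1.87 to -1.65 in the other 3 of its group, and it was not well above background there either. No twin ratio of a member probe lay apart by this test.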

How the results depend on the processing

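Each of the 5 genes kept its direction in both arms under every alternative that gave it a value, 20 or 21 per gene and arm. Several could not move an estimate, namely the probe filters, the twin block choices and the mean over tested probes. Nor could leaving out a set of the other arm. Their number is therefore no support for a direction, which for losartan also picked the genes. The losartan changes ran from -2.45 to -1.72 for CCNB1, -2.28 to -1.33 for CDK1, -2.15 to -1.15 for CCNA2, -2.28 to -0.89 for ASPM and -1.46 to -0.86 for HMMR. With angiotensin II the adjusted p of the 5 genes in limma was 0.141 to 0.998 over the alternatives. The median over the 5 genes with losartan was -2.24 to -1.57 over the fits that leave out 1 twin set of that arm. For angiotensin II the median over the matching fits of its own arm was 0.64 to 0.81. With angiotensin II it was 0.56 within slide 1 and 0.93 within slide 2. Requiring a probe to be well above background on all 16 arrays left only CCNB1 and HMMR, so no median was taken. The number of probes past the threshold with losartan, 108, was 434 in the authors' deposited value table, 57 with that stricter filter, 71 with the slide as a block, 41 within slide 1 and 548 within slide 2. The losartan fits within a slide set 1 fetus against 3, on slide 2 the untreated twin of set 2, whose array stood apart. Almost all probes past the threshold within slide 2 were other probes than the 108. The larger count there is therefore not read as more support for the same calls. The losartan count was 68 with the twin set as a random block and 0 over all 16 arrays with no replicate block. No call held in that unblocked fit. Its medians over the 5 genes were the same, -1.88 and 0.75, which is no support, since with complete twin pairs the block cannot move them. Leaving out 1 twin set gave 32 (set 3) to 99 (set 7), with 64 without set 1 and 49 without set 4. With angiotensin II the count was 0 except 353 within slide 2 and 1 without sets 2, 7 and 8, and 0 in each fit that leaves out 1 set. On slide 2 both angiotensin II fetuses, of sets 7 and 8, were among the arrays that stood apart, and neither untreated fetus of that arm was. The causes of these differences were not tested. Signals near background limit CDK1, CCNA2 and ASPM in losartan fetuses.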
